A study of Mus musculus with 8 samples.

Results

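The expression of 10 genes of the Hippo pathway was followed across mouse pluripotent stem cells and mesoderm progenitors. These were the TEAD transcription factors Tead1, Tead2, Tead3 and Tead4, the coactivator genes Yap1 and Wwtr1, the kinase gene Lats2, the angiomotin-family gene Amotl2, and the secreted-protein genes Ctgf and Cyr61, which are also called Ccn2 and Ccn1. They were listed by name and matched by symbol to 10 of the 37620 genes in the count files. RNA-seq had been run on 8 libraries in 5 groups, so that mouse embryonic stem cells (mESCs) under different signals could be compared with each other and with a differentiated lineage. The R1 mESC line gave 7 of the libraries. It was cultured without feeder cells in medium with serum and one of the following additions. In 2i, the cells received the GSK3 inhibitor CHIR99021 and the MEK inhibitor PD0325901, and 1 library was taken on day 5. In 2iJ, a JAK inhibitor was added to 2i, and 1 library was taken on day 5. In 2iJ+B-A, BMP4 and an inhibitor of the receptor kinase ALK5 were added to 2iJ, and 1 library each was taken on days 2, 5 and 11. The sorted library came from a different line with a Cdx2-GFP reporter, kept in the 2iJ+B-A additions for 2 days and sorted for GFP. Since Cdx2 drove the gate, Cdx2 itself is no finding in it. Mesoderm progenitors were grown from R1 as embryoid bodies in another medium and gave 1 library on day 3 and 1 on day 4. According to the methods of the study, BMP4, Activin A and Wnt3a were supplied to them, and IWP-2, which blocks Wnt secretion, was added on day 3. Day 4 therefore differs from day 3 by this inhibitor and by the additional day.

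The Hippo pathway is a kinase cascade that senses cell contact, polarity and tension. When it is active, LATS kinases phosphorylate YAP (the product of Yap1) and TAZ (the product of Wwtr1), which then stay out of the nucleus. When it is inactive, YAP and TAZ enter the nucleus and bind TEAD factors, and targets such as Ctgf and Cyr61 are transcribed. In the early mouse embryo, TEAD4 with nuclear YAP switches on Cdx2 and Gata3 in the outer cells that form the trophectoderm (TE), whereas angiomotins and LATS kinases hold YAP back in the inner cells.

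TEAD proteins recognise a short DNA element whose core reads GGAATG, or CATTCC on the opposite strand. Both letter strings were searched in the 250 bases before RefSeq transcription starts (build GRCm38.p6), where 7 of the 10 genes had an entry. Tead1, Tead4 and Ctgf were not searched. The string was present for 5 of these 7 genes (71.4%), compared with 14.4% of 27025 genes with an entry. It was found before Tead3, Yap1, Wwtr1, Amotl2 and Cyr61 and was not found before Tead2 and Lats2. Counted by window, 7 of 11 windows of these genes (63.6%) held it, against 12.6% of 32851 windows. Windows of the same gene can overlap, and those of Wwtr1 hold the same match, so the windows are not separate sites. A match is a run of letters and not a measured binding site. The 4 windows below are shown because Lats2 and Cyr61 had the widest ranges of the 10 genes over the libraries (13.5-fold and 10.3-fold), Amotl2 had the pattern most like Cyr61, and Yap1 is the coactivator. Capitals mark the string. It lies 103 bases before the start of Cyr61, 65 bases before that of Amotl2 and 141 bases before that of Yap1, and the Lats2 window does not hold it.
Cyr61 (chr3:145649986-145650235, minus strand): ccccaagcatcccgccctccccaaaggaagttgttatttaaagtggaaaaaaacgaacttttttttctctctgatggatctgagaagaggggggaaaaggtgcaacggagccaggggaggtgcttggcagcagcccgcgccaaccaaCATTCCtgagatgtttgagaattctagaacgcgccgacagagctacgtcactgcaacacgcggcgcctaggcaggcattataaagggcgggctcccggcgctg
Amotl2 (chr9:102717554-102717803, plus strand): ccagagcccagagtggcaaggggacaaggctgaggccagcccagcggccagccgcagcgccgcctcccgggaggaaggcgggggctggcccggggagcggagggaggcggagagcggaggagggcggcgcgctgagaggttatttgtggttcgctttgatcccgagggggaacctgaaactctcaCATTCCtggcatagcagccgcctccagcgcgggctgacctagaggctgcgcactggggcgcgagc
Yap1 (chr9:8004597-8004846, minus strand): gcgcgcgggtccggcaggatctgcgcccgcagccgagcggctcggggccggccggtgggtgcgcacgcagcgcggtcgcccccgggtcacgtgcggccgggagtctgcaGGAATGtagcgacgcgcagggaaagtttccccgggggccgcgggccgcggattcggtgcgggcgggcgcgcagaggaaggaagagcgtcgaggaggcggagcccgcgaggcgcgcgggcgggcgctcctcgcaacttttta
Lats2 (chr14:57746124-57746373, minus strand): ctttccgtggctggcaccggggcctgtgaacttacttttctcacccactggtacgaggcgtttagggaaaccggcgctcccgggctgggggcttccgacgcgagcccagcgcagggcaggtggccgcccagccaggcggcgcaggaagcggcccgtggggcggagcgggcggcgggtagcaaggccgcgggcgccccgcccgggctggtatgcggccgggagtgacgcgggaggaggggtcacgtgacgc

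The libraries held between 19810855 and 31453888 gene counts, and all 10 genes had at least 73 counts in each. Values are CPM, the depth-normalised share of the gene counts of a library. Where genes are compared with each other, CPM is divided by the length of their exons (CPM per kb). Error bars and intervals on single libraries are 95% Wilson intervals and cover counting error only. The sorted library stood apart, with 29.7% of its reads unmapped against 2.17% to 3.85% in the R1 libraries, and with the lowest gene count. Of its uniquely mapped reads, 29.6% fell in no annotated gene on the counted strand, against 11.3% to 16.4% in the R1 libraries. The labelled cell types were checked against marker genes. The summed CPM of 6 pluripotency markers was between 2846 and 4070.3 in the unsorted mESCs, 2010.2 in the sorted cells, 900.2 in day 3 mesoderm progenitors and 83.9 on day 4. That of 6 nascent mesoderm markers was 1539.8 and 581.9 in the mesoderm progenitors and between 9.54 and 58.7 elsewhere. No label names replicates. The libraries of different days stood in for them, and the p-values measure only the spread between these libraries. In bulk RNA, fewer cells of a type and less RNA per cell cannot be told apart.

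**Figure D1:**
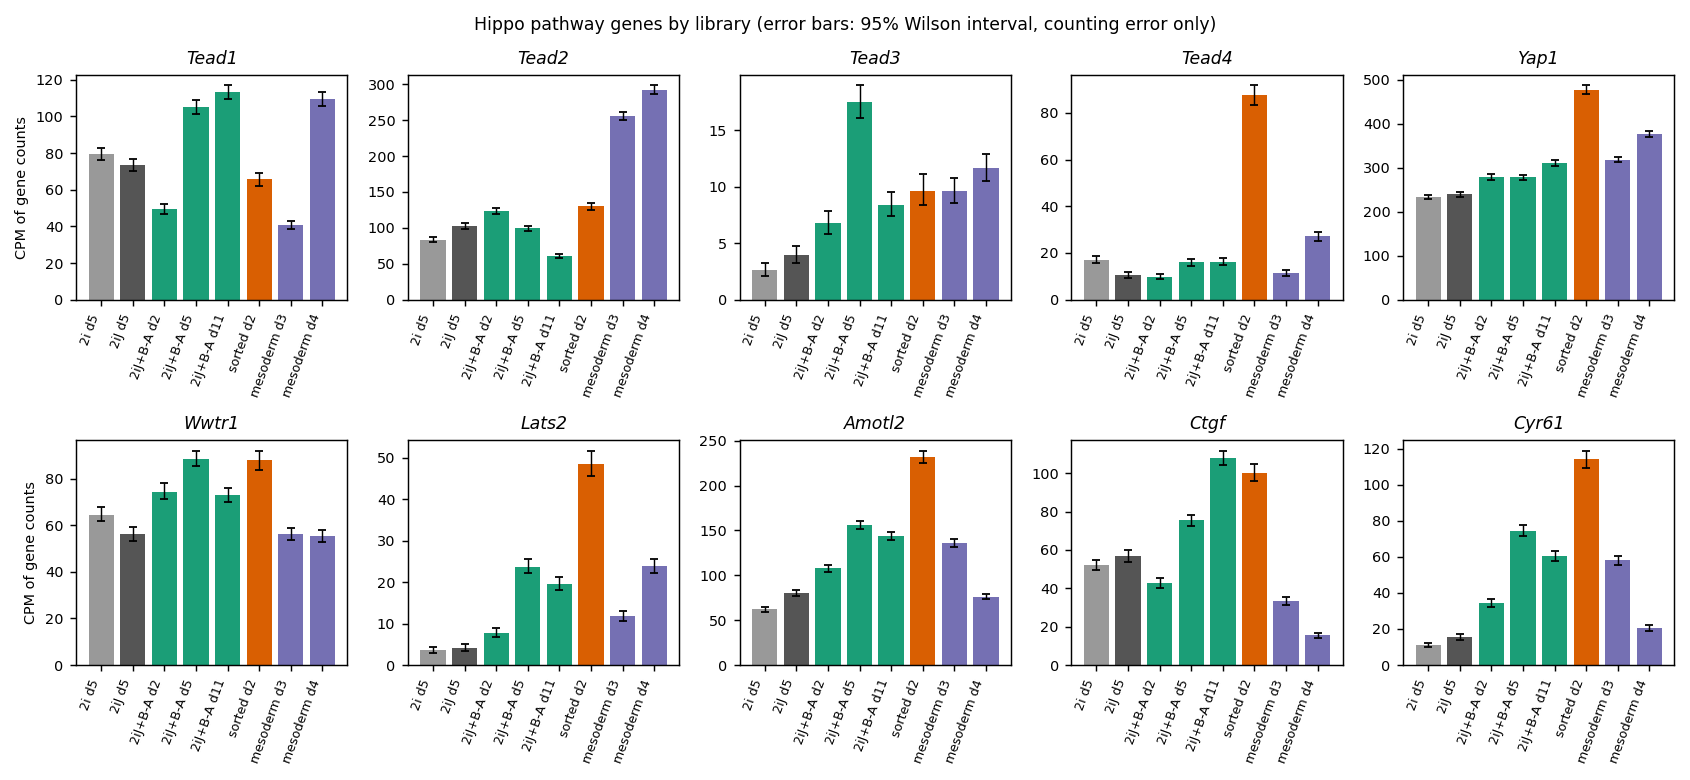
CPM of each of the 10 Hippo pathway genes (vertical axes, CPM of gene counts, starting at 0) in the 8 libraries (horizontal axes; d, day). Error bars are 95% Wilson intervals. Tead4 stands at 87.6 CPM in the sorted cells and between 9.86 and 27.1 CPM in the other libraries, and Tead2 is above 255 CPM only in the 2 mesoderm libraries.

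Tead2 was the leading TEAD gene per length. In 2iJ+B-A its level was 20.2 ± 6.76 CPM per kb, followed by Tead1 with 7.95 ± 3.08, Tead4 with 3.89 ± 0.997 and Tead3 with 2.47 ± 1.31 (SD, n = 3). The values of Tead1 and Tead4 overlapped over these libraries, as did those of Tead4 and Tead3, while every Tead2 value was above every Tead1 value. Tead2 made up between 44.1% and 85.9% of the summed TEAD level per length in the 8 libraries. Tead4 made up 40.4% in the sorted cells and between 4.94% and 15.7% elsewhere. The level of Tead1 carries a limit, because 34.2% of its 11235 exon bases are shared with a second annotated gene on the same strand, which had 0 counts in all libraries. Reads in shared bases are assigned to neither gene in this kind of counting. With only the unshared bases as its length, Tead1 had 15.3 CPM per kb on day 11 of 2iJ+B-A and was above Tead2 (13.0) there, but in none of the other 7 libraries.

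**Figure D2:**
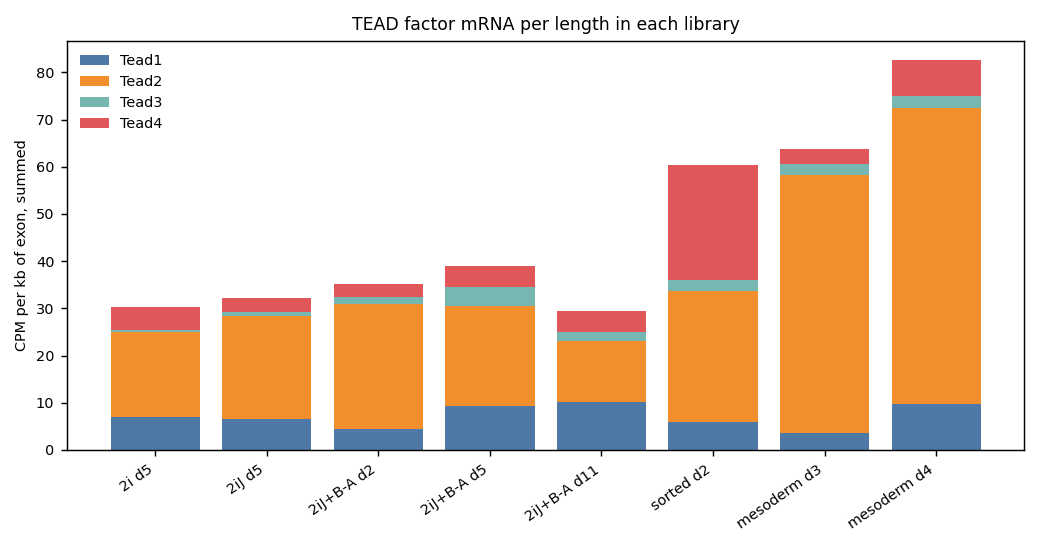
Level of the 4 TEAD genes (vertical axis, CPM per kb of exon, stacked) in the 8 libraries. Tead2 is the largest layer in each bar, and the Tead4 layer makes up 40.4% of the bar only in the sorted cells.

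Tead4 (ENSMUSG00000030353, NCBIM37 chromosome 6, 128174306 to 128250841), the TEAD factor required for TE formation, had 17.1 CPM in 2i and 10.5 in 2iJ. In 2iJ+B-A it had 9.86 on day 2, 15.9 on day 5 and 16.2 on day 11. It had 87.6 CPM in the sorted cells (interval 83.6 to 91.8), and 11.3 and 27.1 in mesoderm progenitors on days 3 and 4. The sorted value was thus above all others, whereas the mesoderm values overlapped those of 2iJ+B-A. Tead2 (ENSMUSG00000030796, chromosome 7, 52471123 to 52489005), a TEAD factor prominent in early embryos, had 83.3 CPM in 2i and 102 in 2iJ. It had 123, 99.2 and 60.8 on days 2, 5 and 11 of 2iJ+B-A, 130.2 in the sorted cells, and 255 and 292 in the mesoderm progenitors. Both mesoderm values were above every mESC value, and in 2iJ+B-A the later the day, the lower the value.

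Tead1 (ENSMUSG00000055320, chromosome 7, 119822832 to 120050319), a broadly used TEAD factor, had 79.3 CPM in 2i, 73.5 in 2iJ, and 49.6, 105 and 113 on days 2, 5 and 11 of 2iJ+B-A. It had 65.7 in the sorted cells, 40.9 on day 3 and 109 on day 4 of mesoderm. The groups overlapped. Tead3 (ENSMUSG00000002249, chromosome 17, 28468616 to 28487750), the TEAD gene with the lowest level per length in the 2iJ+B-A mean, had 2.59 CPM in 2i and 3.93 in 2iJ. Its other values lay between 6.77 (2iJ+B-A day 2) and 17.5 (2iJ+B-A day 5), with 8.40 on day 11, 9.64 in the sorted cells, and 9.60 and 11.6 in mesoderm. All 6 of these were above both 2i and 2iJ.

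Of the coactivators, Yap1 was at a higher level per length than Wwtr1 in every library, with 31.2 ± 1.99 against 16.5 ± 1.82 CPM per kb in 2iJ+B-A (SD, n = 3). Yap1 (ENSMUSG00000053110, chromosome 9, 7931999 to 8004596) had 234 CPM in 2i, 240.0 in 2iJ, and 278, 279 and 311 on days 2, 5 and 11 of 2iJ+B-A. It had 478 in the sorted cells, and 319 and 377 in mesoderm progenitors. All 3 values of 2iJ+B-A were above 2i and 2iJ and below mesoderm, and the sorted value was above all others. Wwtr1 (ENSMUSG00000027803, chromosome 3, 57259571 to 57379832) had 64.6 CPM in 2i, 56.1 in 2iJ, 74.4, 88.6 and 72.8 in 2iJ+B-A, 87.8 in the sorted cells, and 56.2 and 55.3 in mesoderm. All 3 values in 2iJ+B-A were above those of 2i, 2iJ and mesoderm.

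Lats2 and Amotl2 encode negative regulators that are themselves induced by YAP and TAZ in many cells. Lats2 (ENSMUSG00000021959, chromosome 14, 58260914 to 58377225), which phosphorylates YAP, had 3.59 CPM in 2i and 4.13 in 2iJ, and 7.66, 23.8 and 19.6 on days 2, 5 and 11 of 2iJ+B-A. It had 48.6 in the sorted cells, and 11.9 and 23.9 in mesoderm. Amotl2 (ENSMUSG00000032531, chromosome 9, 102619002 to 102635748), an angiomotin-family protein that binds YAP, had 62.0 CPM in 2i, 80.2 in 2iJ and 108, 156 and 144 in 2iJ+B-A. It had 232 in the sorted cells, and 136 and 76.2 in mesoderm. Both genes were lowest in 2i, above 2iJ on all 3 days of 2iJ+B-A, and highest in the sorted cells. The sister kinase gene Lats1 stayed between 27.3 and 48.6 CPM in the 8 libraries, while the highest Lats2 value was 13.5-fold the lowest.

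The matricellular proteins encoded by Ctgf and Cyr61 are standard readouts of YAP and TAZ activity. Cyr61 (ENSMUSG00000028195, chromosome 3, 145309935 to 145312949) had 11.1 CPM in 2i, 15.5 in 2iJ, and 34.2, 74.5 and 60.3 on days 2, 5 and 11 of 2iJ+B-A. It had 114 in the sorted cells, and 58.0 and 20.7 in mesoderm. Ctgf (ENSMUSG00000019997, chromosome 10, 24315248 to 24318489) had 52.0 CPM in 2i, 56.7 in 2iJ, and 42.9, 75.3 and 108 in 2iJ+B-A. It had 100.05 in the sorted cells, and 33.2 and 15.4 in mesoderm. Cyr61 followed the order of Lats2 and Amotl2 within the mESCs, whereas Ctgf on day 2 of 2iJ+B-A was below both 2i and 2iJ.

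**Figure D3:**
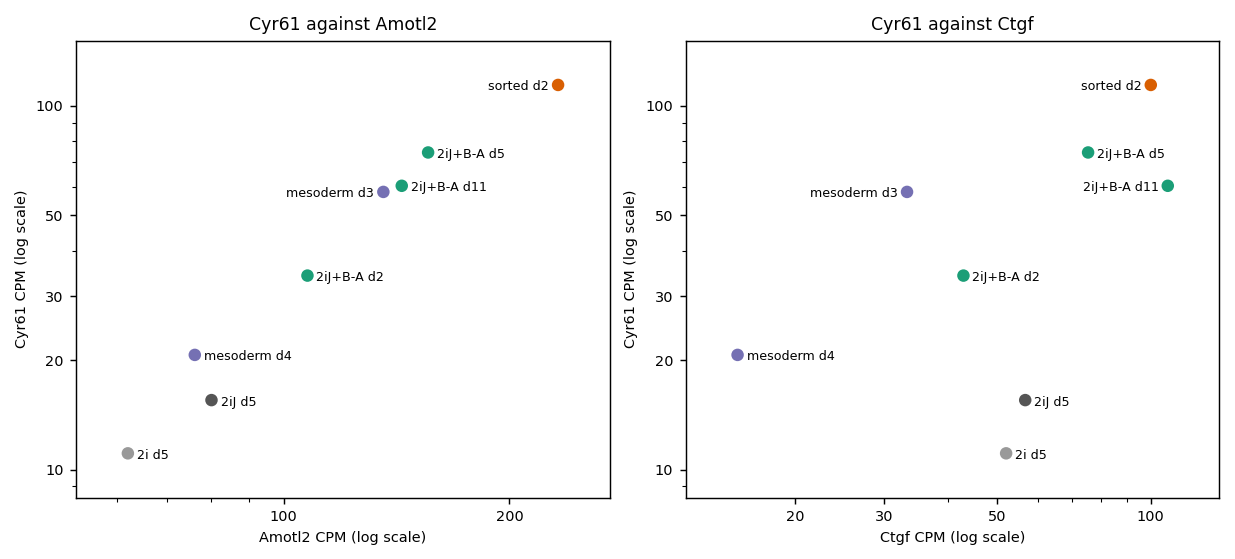
CPM of Cyr61 (vertical axes, log scale) against CPM of Amotl2 (left, log scale) and of Ctgf (right, log scale), 1 point for each of the 8 libraries. The points lie close to a line for Amotl2 (r = 0.979 on log2 CPM) and are scattered for Ctgf (r = 0.477).

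Over the 8 libraries, Pearson's r of log2 CPM was 0.979 for Cyr61 and Amotl2 and 0.477 for Cyr61 and Ctgf. It was 0.852 for Tead4 and Yap1 and -0.829 for Tead2 and Ctgf. These are descriptions of libraries that differ in line, medium and depth, and 3 of them are from 1 condition. Among 9455 genes with a mean of at least 10 CPM, the pattern of Cyr61 was most like that of Amotl2, then Rab15 (r = 0.977) and Anxa3 (0.969). For Tead4 these genes were Mier3 (0.978), Spag9 (0.971) and Lysmd3 (0.965), and for Yap1 they were Aph1a (0.986), Mcfd2 (0.978) and Nkiras2 (0.971). For Ctgf they were BC031181 (0.984), 1700013H16Rik (0.979) and Erich1 (0.978), and no other of the 10 genes appeared in any of these lists.

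Addition of BMP4 and the ALK5 inhibitor to 2iJ was examined first. Cyr61, Lats2, Tead3 and Amotl2 had the largest ratios of the 2iJ+B-A mean to 2iJ. The mean of Lats2 was 17.0 ± 8.36 CPM (SD, n = 3) against 4.13, or 4.12-fold. That of Cyr61 was 56.3 ± 20.5 CPM against 15.5, or 3.63-fold. At the matched day 5 these ratios were 5.76 and 4.80. The log2 fold change was 1.97 ± 0.764 (SE) for Lats2 and 1.79 ± 0.688 for Cyr61, with an edgeR adjusted p of 0.627 for both. In the same edgeR fit it was 1.40 ± 0.642 for Tead3 and 0.69 ± 0.361 for Amotl2, with adjusted p of 0.701 and 0.745. Of the 10 genes, 0 passed the threshold of 0.05 on the edgeR adjusted p, which was also the case for 0% of the 16961 genes tested. Before adjustment, Lats2 (0.0393) and Cyr61 (0.0382) had a p under 0.05 in edgeR, as did 1290 genes (7.61%). With DESeq2, 305 of the 14659 genes with an adjusted p (2.08%) were called, and 0 of the 10 were among them. The reference was 1 library, so the spread in this test came from the 2iJ+B-A days and the mesoderm days.

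In direction, 9 of the 10 log2 fold changes were positive, as were those of 8942 of the 16961 genes tested. The median of the 10 was 0.38 against 0.03 over all genes tested. The exception was Tead2 (-0.17). For Tead3, Yap1, Wwtr1, Lats2, Amotl2 and Cyr61, all 3 values in 2iJ+B-A were above both 2iJ and 2i. These are 6 of 10, where 33.9% of all genes tested had all 3 values above 2iJ and 26.5% had them above both. Cell type markers moved with this comparison. The summed CPM of 7 TE markers was 62.8 in 2iJ and between 432 and 1218.1 in 2iJ+B-A, and that of 6 primitive endoderm markers was 13.8 and between 29.2 and 205. Krt8 and Krt18 had the largest TE marker means in 2iJ+B-A (364 and 277 CPM), and Elf5 had 0.369. Of the 7 TE markers, 6 had a positive log2 fold change, and Eomes a negative one (-1.94). The TE sum was also 1007 and 876.3 CPM in mesoderm progenitors on days 3 and 4. Krt8, Hand1 and Eomes had the largest means there (294, 291 and 207 CPM), and Eomes is also in the nascent mesoderm list. Against 2iJ+B-A, 3 of the 7 TE markers were higher in mesoderm and 4 were lower. The part of these markers in the values of the 10 genes was not tested. The JAK inhibitor alone was examined at day 5. Between 2iJ and 2i, which had 1 library each and so no test, 0 of the 10 genes differed by more than 2-fold, against 7.28% of all genes tested. Their log2 ratios lay between -0.71 for Tead4 and 0.57 for Tead3.

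**Figure D4:**
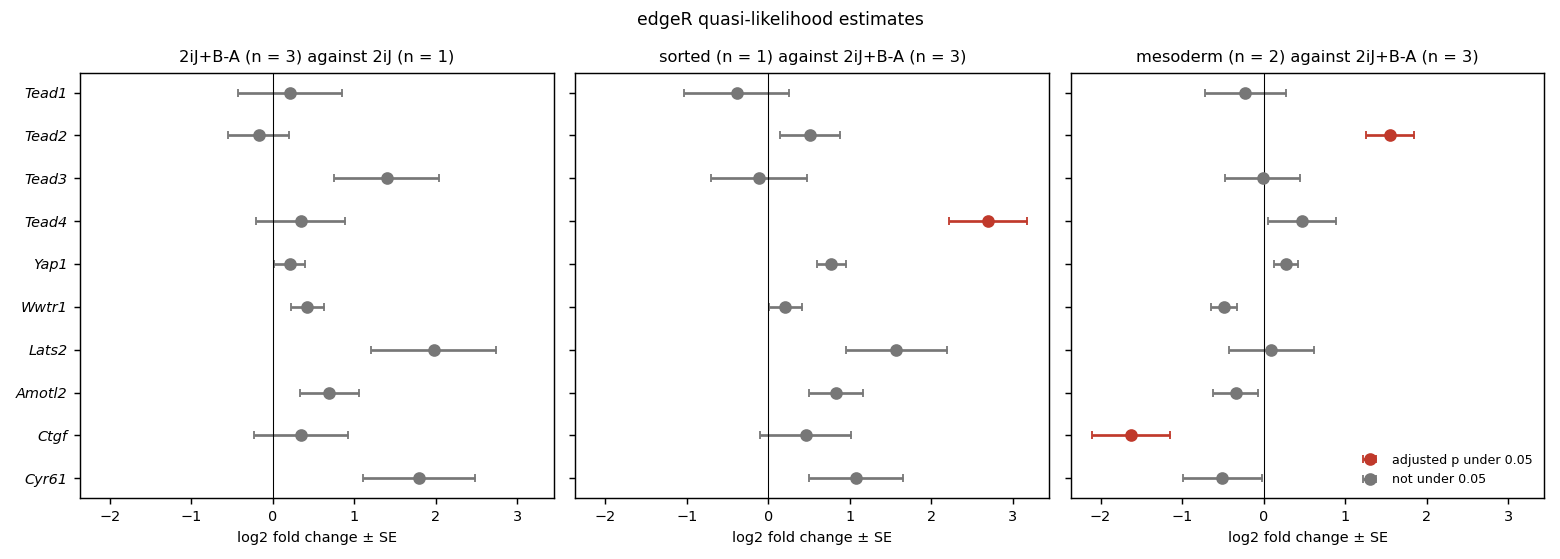
Log2 fold changes of the 10 genes (horizontal axes) with their SE from edgeR in 3 comparisons, 2iJ+B-A against 2iJ (left), sorted cells against 2iJ+B-A (middle) and mesoderm progenitors against 2iJ+B-A (right). Red points have an adjusted p under 0.05, which are Tead4 (2.70) in the middle panel and Tead2 (1.55) and Ctgf (-1.62) in the right panel.

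Within 2iJ+B-A, change over days 2, 5 and 11 was described by a slope on log2(day). Tead2 had a slope of -0.42 ± 0.098 per doubling of the day (SE) and Ctgf one of 0.53 ± 0.218. The edgeR adjusted p was 0.827 for Tead2 and 0.837 for Ctgf, and 0 of the 10 genes and 0% of all genes passed. Before adjustment, Tead2 alone of the 10 had a p under 0.05 in edgeR (0.00764), as did 1004 genes (5.92%). DESeq2 called 115 genes (0.841%) and 0 of the 10. When either mesoderm library was left out, the slopes were -0.43 for Tead2 and 0.53 for Ctgf. In these fits the spread came only from the scatter of the 2iJ+B-A days about their own line. Their calls are therefore no check of the slopes. Of the 22 genes of a YAP and TAZ target signature, 20 had positive slopes, as had 8529 of the 16961 genes tested. The median slope of the 22 was 0.32 against 0.00 over all genes, and 0 were called. The summed primitive endoderm markers were 29.2, 54.5 and 205 CPM on these days. The part of such cells in the slopes was not tested.

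The sorted Cdx2-GFP-positive cells had more Tead4 than the unsorted 2iJ+B-A cells. The sorted value of 87.6 CPM compares with 14.0 ± 3.59 (SD, n = 3), which is 6.26-fold, and with 9.86 on the same day, which is 8.88-fold. The log2 fold change was 2.70 ± 0.482, with an edgeR adjusted p of 0.0358. Tead4 was the only one of the 10 genes called, where edgeR called 5.42% of all genes tested and 3.34% as higher. The call was lost when any 2iJ+B-A library was left out, with an edgeR adjusted p of 0.0895 without day 2, 0.131 without day 5 and 0.0954 without day 11. Compared at day 2 in a fit with the slope, the log2 fold change was 3.09 with an edgeR adjusted p of 0.114.

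Yap1 was 1.65-fold the unsorted mean (log2 fold change 0.77 ± 0.18), with an edgeR adjusted p of 0.0601. With a 2iJ+B-A library left out, Yap1 reached an edgeR adjusted p of 0.187. It was called when only these groups were fitted (edgeR adjusted p of 0.0415), with DESeq2 (0.00954, where 17.2% of all genes were called), and without either mesoderm library (0.0402 without day 3 and 0.0393 without day 4). Lats2 (1.57 ± 0.618), Amotl2 (0.83 ± 0.331) and Cyr61 (1.08 ± 0.578) had larger log2 values in the sorted cells and edgeR adjusted p of 0.167, 0.174 and 0.281. Tead4, Yap1, Lats2, Amotl2 and Cyr61 were each highest of the 8 libraries in the sorted cells, or 5 of 10, against 23.1% of all genes tested. Tead2 was also above all 3 unsorted values, which made 6 of 10 against 33.5%. The median log2 fold change of the 10 genes was 0.64, against -0.08 over all genes.

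The direct TEAD4 targets of the embryo, Cdx2 and Gata3, had 235 and 105 CPM in the sorted cells, against 15.0 to 30.1 and 15.7 to 42.5 CPM in 2iJ+B-A. Gata3 had a log2 fold change of 1.85 ± 0.462 and was not called. Since Cdx2 drove the gate, its value is no finding. Of the wider target signature, 0 of 22 genes were called in the sorted cells, with a median of 0.00 (11 genes higher and 11 lower). Among 23 kinases and upstream regulators, 1 was called in each direction (5.42% of all genes were called). Taok3 rose (1.64 ± 0.308, edgeR adjusted p of 0.0401) and Amotl1 fell (-1.51 ± 0.293, 0.0427). TAOK kinases act upstream in the cascade, and AMOTL1 is an angiomotin. The line, the sort and the library's alignment cannot be told apart from the gate in this comparison. The summed CPM of 6 fibroblast markers was 100.5 in the sorted library and between 7.91 and 16.8 elsewhere, all 6 were higher than in 2iJ+B-A, and Col1a1 and Col3a1 were called. That of 7 TE markers was 3705.1, with 5 of 7 higher, among them the gate gene Cdx2. Fos, an immediate-early gene, was also called (2.60 ± 0.517, edgeR adjusted p of 0.0443), as 1 of 12 immediate-early and SRF-actin genes. The part of these in the values of the 10 genes was not tested.

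Mesoderm progenitors differed from 2iJ+B-A cells in Tead2 and Ctgf, in opposite directions. This is the only comparison with more than 1 library on each side, and it shares the 2iJ+B-A libraries with the other comparisons. Tead2 had 273.9 ± 26.2 CPM (SD, n = 2) against 94.5 ± 31.6 (SD, n = 3), or 2.90-fold. Its log2 fold change was 1.55 ± 0.293, with an edgeR adjusted p of 0.0137. Ctgf had 24.3 ± 12.6 CPM against 75.4 ± 32.6, with a log2 fold change of -1.62 ± 0.479 and an edgeR adjusted p of 0.0496. These are 2 of 10 called, 1 in each direction, where edgeR called 27% of all genes tested (11.5% higher and 15.5% lower). Ctgf was near the threshold and was not called with RLE size factors (edgeR adjusted p of 0.0511), without mesoderm day 4 (0.158), or without day 5 (0.118) or day 11 (0.115) of 2iJ+B-A. Tead2 was not called without day 5 of 2iJ+B-A (edgeR adjusted p of 0.0516).

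The other 8 genes were not called. Wwtr1 (-0.48 ± 0.16, edgeR adjusted p of 0.0693) and Yap1 (0.28 ± 0.148, 0.206) had values in mesoderm that did not overlap those of 2iJ+B-A, as had Ctgf and Tead2. These are 2 higher and 2 lower of 10, where 57.2% of all genes tested did not overlap (26.2% higher and 31% lower). The log2 fold changes of Tead1, Tead3, Tead4, Lats2, Amotl2 and Cyr61 lay between -0.51 and 0.48, and each of these changed sign with 1 library left out. With the mean of all unsorted mESC groups as the reference, the log2 fold changes of Cyr61 and Amotl2 were 0.84 and 0.24.

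The mesoderm libraries also differed from each other. From day 3 to day 4, with no replicates and so no test, 5 of the 10 genes differed by more than 2-fold, against 20.9% of all genes tested (9.4% higher and 11.6% lower). The log2 ratio was 1.45 for Tead1, 1.28 for Tead4 and 1.03 for Lats2, and it was -1.46 for Cyr61 and -1.08 for Ctgf. Amotl2 had -0.81. Ctgf and Cyr61 thus had lower CPM on day 4, while Tead1, Tead4 and Lats2 had higher CPM. The target signature was split, with 4 of its 22 genes more than 2-fold higher and 7 lower. Its median log2 ratio was -0.51, against 0.00 over all genes. In the same step the nascent mesoderm markers went from 1539.8 to 581.9 CPM and the pluripotency markers from 900.2 to 83.9. The primitive endoderm markers went from 132.8 to 356.5. Gata4 and Gata6 had the largest means among them in mesoderm (161 and 59.3 CPM). Of these 6 markers, 5 were higher on day 4, Sox17 only slightly (log2 ratio 0.05), and Foxa2 was lower (-3.71). The endothelial markers went from 4.74 to 56.0, with Emcn at 0 in all libraries. The part of this change in cell types was not tested, and IWP-2 and the additional day cannot be told apart.

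The regulators that act before YAP and TAZ were examined as a list. Of 23 kinases and upstream regulators, which include Lats2 and Amotl2, 6 rose and 2 fell against 2iJ+B-A, where edgeR called 27% of all genes tested (11.5% higher and 15.5% lower), with a median log2 fold change of 0.25 against -0.03 over all genes. The angiomotin gene Amot, whose product holds YAP at junctions, had 1185 and 1502 CPM in mesoderm and between 49.1 and 100.4 in 2iJ+B-A (4.21 ± 0.308, edgeR adjusted p of 0.00127). Amot had 11.97 CPM in 2i and 35.1 in 2iJ. The atypical cadherin genes Dchs1 (5.04 ± 0.785, edgeR adjusted p of 0.00774) and Fat4 (3.56 ± 0.565, 0.00824), a ligand and receptor pair, rose as well. Both were low in 2iJ+B-A, with means of 0.988 CPM for Dchs1 and 0.370 for Fat4. In mesoderm, Dchs1 had 32.1 ± 26.2 CPM and Fat4 only 4.39 ± 0.903 (SD, n = 2). Amotl1 rose by 1.17 ± 0.205 (0.0109), in the opposite direction to its change in the sorted cells. The others that rose were Limd1 and Sav1, and those that fell were Ajuba and Wwc2, with log2 fold changes of size 0.69 to 1.01.

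**Figure D5:**
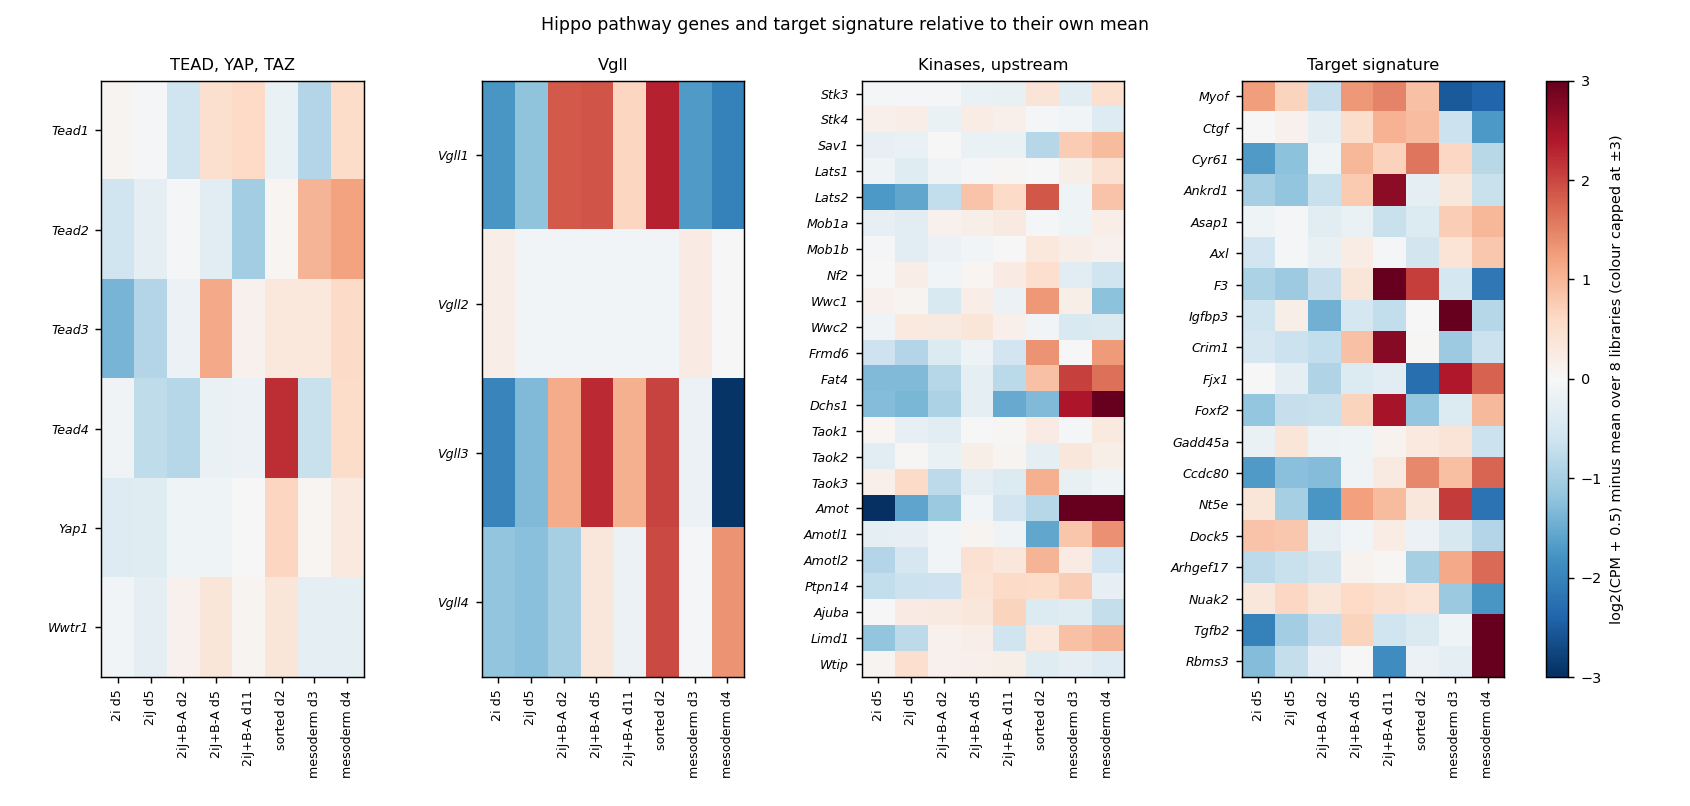
Log2(CPM + 0.5) minus its mean over the 8 libraries (colour, capped at 3 on either side) for TEAD and coactivator genes, Vgll genes, kinases and upstream regulators, and the target signature. Amot reaches 1185 and 1502 CPM in the mesoderm libraries, and Vgll1 is at 0.127 and 0 CPM there.

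The Vgll genes encode vestigial-like proteins, which bind TEAD factors in place of YAP and TAZ. Vgll1 had 0.107 CPM in 2i, 0.389 in 2iJ, 6.81, 6.99 and 2.67 in 2iJ+B-A, and 9.64 in the sorted cells, but 0.127 (4 counts) and 0 in mesoderm. It was the only Vgll gene called in mesoderm against 2iJ+B-A (edgeR adjusted p of 0.0106), and its fitted fold change depends on the prior count. Vgll3 had 0.853 CPM in 2i, 1.63 in 2iJ, 11.1, 24.8 and 10.7 in 2iJ+B-A, 21.4 in the sorted cells, and 4.29 and 0.194 in mesoderm. Vgll4, whose product competes with YAP for TEAD, had 79.6 CPM in the sorted cells, 51.1 on day 4 of mesoderm and between 8.06 and 25.3 elsewhere. In 2iJ+B-A against 2iJ, Vgll1, Vgll3 and Vgll4 had log2 fold changes of 3.74, 3.18 and 1.04, with edgeR adjusted p of 0.561, 0.728 and 0.829. Vgll2 had at most 4 counts in any library and was not tested.

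The target signature, which includes Ctgf, Cyr61, Lats2 and Amotl2, was examined in the same way. Of its 22 genes, 4 rose and 3 fell in mesoderm against 2iJ+B-A, a share near the 27% of all genes tested, with a median of 0.06. Igfbp3, a growth factor binding protein, rose (3.94 ± 1.14, edgeR adjusted p of 0.0473), with 279 CPM on day 3 and 9.43 on day 4 of mesoderm against 9.38 ± 3.01 in 2iJ+B-A (SD, n = 3), so that the day 4 value lay within those of 2iJ+B-A. Fjx1 (2.91 ± 0.402, edgeR adjusted p of 0.00575) rose too, whereas the membrane repair gene Myof (-3.52 ± 0.682, 0.0146) and the kinase gene Nuak2 (-2.22 ± 0.431, 0.0147) fell together with Ctgf. The others that rose were Arhgef17 and Asap1. Of 12 immediate-early and SRF-actin genes, which respond to related signals, 5 rose and 1 fell in mesoderm, against 11.5% of all genes tested called as higher and 15.5% as lower. In 2iJ+B-A against 2iJ, 0 of 22 signature genes were called and 15 were positive, as were 8942 of the 16961 genes tested. The median of the 22 was 0.59 against 0.03 over all genes.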

How the data were processed

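Strand-specific poly-A libraries were sequenced as read pairs by the authors, trimmed, and aligned with STAR (2.4.2a, per the submitters' processing notes) to NCBIM37. The deposited values are raw counts per gene from STAR. The reverse-strand column was used. The authors adjusted their own expression values for experiment day with ComBat, and these counts hold no such adjustment. The sample codes of the mesoderm, sorted and unsorted libraries begin with different letters, and a batch that followed them cannot be told apart from these groups. Symbols came from GENCODE vM1 (37205 of 37620 identifiers matched). The authors' annotation release is not given in the sources used here.

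A minimum of 10 counts in 2 libraries left 16961 genes. All libraries entered a single edgeR fit (edgeR 4.0.16, R 4.3.3) with TMM scaling, 5 group coefficients and 3 residual degrees of freedom (2 with the slope). Quasi-likelihood p-values were adjusted by Benjamini-Hochberg over all genes, with a threshold of 0.05. SE was derived from the F statistic. Log2 ratios without a test used TMM-scaled CPM with a prior count of 2. The smallest share set for a library was 3 counts, or 0.0954 to 0.151 CPM. The alternatives tried were RLE scaling, no filter, DESeq2 1.42.0, unstranded counts, other references, fits of only the groups compared, other gene lengths, and each library left out. The script was tested on simulated data.

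The 10 genes and the lists were chosen with earlier results of these data known. All 10 genes are named. Other list genes are named where called (at most 4 by size per list and comparison, further ones by symbol only), or as Lats1, Cdx2, Gata3 or Vgll1 to Vgll4.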

Additional observations from a re-analysis of the deposited data

Results flagged for a closer look

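The long noncoding gene Gm15270 lies antisense to Ctgf and shares 570 exon bases with it. It was looked at because it belongs to no comparison of the report, and it had 2.34 CPM in 2iJ on day 5, above the limit that a count of 0 allows (0.117 CPM in that library). Over the 8 libraries it lay between 0.477 CPM (day 3 mesoderm progenitors) and this value. In every library 5.03% to 6.47% of counts fell on the strand opposite to the gene, so reads of Ctgf on the wrong strand could not be told apart from reads of Gm15270.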

How the results depend on the processing

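Mesoderm progenitors against 2iJ+B-A gave 2 called genes of 10. This count was 1 with RLE size factors, 1 with all 5 unsorted R1 stem cell libraries as reference, 1 when only the groups compared were fitted, and between 0 and 2 with a library left out, where 2019 to 4538 of all genes were called. The sorted cells against 2iJ+B-A gave 1. This count was 2 with DESeq2, 0 when compared at day 2 in the fit with a slope, 2 when only the groups compared were fitted, and between 0 and 2 with a library left out, where 37 to 2052 of all genes were called. The slope gave 0. Its fits with either mesoderm library left out give no check, because only the 2iJ+B-A days then set the spread. 2iJ+B-A against 2iJ gave 0 in every alternative run. The first and this last comparison gave the same counts (2 and 0) without the sorted library, an alternative chosen after seeing the data.

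Uncalled log2 fold changes that changed sign were those of Tead3 in mesoderm without the filter (0.031), of Tead3, Amotl2 and Cyr61 with the 5-library reference (1.11, 0.24 and 0.84), of Tead4 with 2i and 2iJ pooled (-0.055), and of Tead1 and Tead3 in the sorted cells at day 2 (0.29 and 0.081). With a library left out, the ranges in mesoderm were -1.08 to 0.37 for Tead1, -0.25 to 0.52 for Tead3, -0.26 to 1.03 for Tead4, -0.46 to 0.57 for Lats2, -0.76 to 0.049 for Amotl2 and -1.36 to 0.095 for Cyr61. They were -0.0083 to 0.49 for Tead1, -0.43 to 0.060 for Tead2 and -0.018 to 0.62 for Ctgf in 2iJ+B-A against 2iJ, and -0.35 to 0.38 for Tead3 in the sorted cells. The cause was not tested.

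Ctgf had 11.2 to 77.7 CPM with unstranded counts, where reads in the bases shared with Gm15270 count for neither gene, against 15.4 to 108 CPM. Levels per length depend on the gene model, and a length without shared bases, chosen after seeing the data, raised Tead1 to between 5.53 and 15.3 CPM per kb. No paired analysis was possible because the labels give no replicate numbers that the groups share. Single libraries on a side leave no estimate of their own spread.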
